A study of Mus musculus with 10 samples.

Results

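The genes described here are those of the secreted insulin-like growth factor (IGF) binding proteins *Igfbp2*, *Igfbp3*, *Igfbp4*, *Igfbp5*, *Igfbp6*, and *Igfbp7*, the ligand *Igf1*, and its receptor *Igf1r*. They were chosen by name, with earlier results of these data known. All 8 were found among the 42520 genes joined across the plate tables and the 32285 genes of the droplet (10x) libraries. The question was which endothelial or mural cell type carried each of them, and how each differed from its control in 3 models of impaired angiopoietin signalling in mouse ear skin. For 2 models, live podoplanin-positive CD31-positive lymphatic endothelial cells (LECs) were sorted 1 per well, and their whole transcripts were read by Smart-seq. The 4 groups of 2 plates each were *Tie1 fl/fl* mice without Cre, *Tie1 iΔLEC* mice (*Tie1 fl/fl* with *Prox1CreERT2*), *Tie1* *Tie2 fl/fl* mice without Cre, and *Tie1* *Tie2 iΔLEC* mice (both floxed genes with *Prox1CreERT2*). The last 2 are called the double-control and the double-deletion plates. *Prox1CreERT2* expresses a tamoxifen-activated recombinase in cells that use the *Prox1* promoter, such as LECs. The controls without Cre received 4-hydroxytamoxifen (4-OHT) as the deleted mice did, 62.5 µg into the stomach on each day from P1 to P5. For the remaining model, C57Bl/6j wild-type males received a control IgG or an Ang2-blocking antibody (Ang2 Ab) at 20 mg/kg every 3 days from P16 to P21, and CD31-sorted skin cells gave 1 droplet library each. The age labels give the treatment days (P1-P5 for the plates, P1-P21 for the droplet libraries) and not the day of collection. The *Tie1 fl/fl* and *Tie1 iΔLEC* plates numbered 1 came from females and the other plates from males. The number of mice behind a plate or library was not given, so the p-values measure only the spread between plates.

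IGF ligands signal through the receptor tyrosine kinase Igf1r to support growth and survival. In tissue fluid most ligand is held by IGF binding proteins, which prolong its life, keep it from the receptor, or tether it to the matrix, and which proteases such as Pappa cleave to set it free. Tie1 and Tie2 (gene *Tek*) are endothelial receptors, and Ang2 (gene *Angpt2*) is a Tie2 ligand that LECs secrete.

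The promoters of the 3 genes that fell after deletion of both receptors, *Igfbp5*, *Igfbp3*, and *Igf1*, are shown with that of *Igfbp4*, which was not called there. Each is the stretch of 250 bases before the RefSeq transcription start on GRCm38.p6, written 5′ to 3′ on the gene's strand. Capitals mark any match, on either strand, to 5 motifs that were chosen after the sequences had been seen. These were the TATA box TATAAA with its looser forms (first TATTTAA, then also TATATA), the GC box GGGCGG, and the forkhead core GTAAACA.

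*Igfbp5* promoter, chr1:72874866-72875115, minus strand: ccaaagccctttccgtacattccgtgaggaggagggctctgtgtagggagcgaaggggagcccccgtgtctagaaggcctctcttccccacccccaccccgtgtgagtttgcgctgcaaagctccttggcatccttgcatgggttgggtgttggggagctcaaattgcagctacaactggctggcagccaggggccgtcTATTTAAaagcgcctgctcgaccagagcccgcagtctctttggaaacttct

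*Igfbp3* promoter, chr11:7213924-7214173, minus strand: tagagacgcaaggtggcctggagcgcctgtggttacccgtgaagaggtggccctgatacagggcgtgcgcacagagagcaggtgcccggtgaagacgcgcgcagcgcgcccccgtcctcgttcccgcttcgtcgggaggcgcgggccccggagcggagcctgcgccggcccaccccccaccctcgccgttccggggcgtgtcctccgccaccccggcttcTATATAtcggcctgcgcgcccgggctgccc

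*Igf1* promoter, chr10:87860861-87861110, plus strand: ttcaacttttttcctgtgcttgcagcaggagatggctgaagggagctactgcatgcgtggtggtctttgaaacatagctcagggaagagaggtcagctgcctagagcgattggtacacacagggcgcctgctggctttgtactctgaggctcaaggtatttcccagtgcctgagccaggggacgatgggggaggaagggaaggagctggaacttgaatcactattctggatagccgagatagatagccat

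*Igfbp4* promoter, chr11:99040994-99041243, plus strand: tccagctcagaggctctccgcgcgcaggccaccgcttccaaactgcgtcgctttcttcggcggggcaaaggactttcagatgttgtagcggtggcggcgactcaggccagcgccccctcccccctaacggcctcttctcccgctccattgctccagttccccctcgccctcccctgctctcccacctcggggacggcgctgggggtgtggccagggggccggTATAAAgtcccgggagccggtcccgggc

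The *Igfbp5*, *Igfbp3*, and *Igfbp4* stretches each held 1 TATA-like match close to the start, and the *Igf1* stretch held none of the 5 motifs. That *Igf1* stretch lies inside the *Igf1* gene, which begins at 87858265, so the bases before the whole gene were not searched. The match of *Igfbp5*, TATTTAA, was in 4.18% of 32851 RefSeq promoters of the same length, that of *Igfbp3*, TATATA, in 5.25%, and that of *Igfbp4*, TATAAA, in 12.4%. The GC box GGGCGG, in 32.7% of all promoters, was in none of these 4. GTAAACA, which FOXO factors downstream of Tie2 and of Igf1r can bind, was in 3.17% of promoters and in none of those of the 8 genes. The 4 stretches therefore shared no motif among those searched.

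On GRCm38, *Igfbp5* lies on the minus strand of chromosome 1 (72857932 to 72874884) and *Igfbp2* on the plus strand next to it (72824503 to 72852474), with 5457 bases between them. *Igfbp3* lies on the minus strand of chromosome 11 (7206086 to 7213923), 3539 bases from *Igfbp1*, and *Igfbp4* farther along the same chromosome (99041244 to 99054392). *Igfbp6* is on chromosome 15 (102144362 to 102149511), *Igf1* on chromosome 10 (87858265 to 87937042), and *Igf1r* on chromosome 7 (67952827 to 68233668). *Igfbp7* on chromosome 5 (77349240 to 77408041) overlaps *Polr2b* and the antisense gene *Gm34648*, and *Igf1* overlaps the antisense gene *Igf1os*. Smart-seq reads carry no strand, so reads of these pairs cannot be told apart on the plates where they overlap.

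The plates held 3048 wells in all, with 71309205 to 110741537 counts per plate. Clustering without the genes described here left 2777 LEC wells and set aside 224 fibroblast-like and 25 keratinocyte-like wells, and the LEC wells of a plate summed to 67597357 to 105218814 counts. In those sums *Tie1* was at 2358 to 2735 CPM (counts scaled to the same library total) in the 4 control plates and at 479 to 715 CPM in the 4 deleted plates. *Tek* was at 31.9 and 55.1 CPM after double deletion and at 220 to 324 CPM in the others, so both targeted genes were lower where the labels say they were deleted. The deposited tables have 2 layouts, and each group holds 1 plate of each. The droplet libraries held 4685 (IgG) and 4331 (Ang2 Ab) barcodes, of which 5 were shared, with a median of 6957 and 4920 UMIs. After filtering, 3438 and 2963 cells remained. One title names the Ang2 Ab library a control, and its treatment label was followed instead. Cell types named "-like" rest on marker genes, and the 8 genes played no part in the clustering.

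*Igfbp4*, an inhibitory binding protein that Pappa cleaves, had the highest mean level of the 8 per length of exon in control LECs. It was at 221 ± 38.5 CPM per kb (SD, n = 4 control plates), followed by *Igfbp7* at 129 ± 68.8, *Igfbp3* at 83.9 ± 35.7, and *Igfbp5* at 66.5 ± 21.6 CPM per kb. The last 3 of these overlapped within their spread. *Igfbp4* and *Igfbp7* overlapped too, and their order was not the same in every control plate. *Igfbp6* (6.16 ± 4.98), *Igfbp2* (3.49 ± 1.36), *Igf1* (3.20 ± 0.78), and *Igf1r* (1.43 ± 0.33 CPM per kb) were far lower, and the first 3 of these also overlapped. Message per length was higher for each of *Igfbp4*, *Igfbp7*, *Igfbp3*, and *Igfbp5* than for the ligand or the receptor in all 4 plates.

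LEC classes differed in which binding protein they carried, as a description of the control plates. *Igfbp4* was at 1068 ± 172 CPM in collector-like LECs and 1016 ± 318 CPM in capillary-like LECs but at 105 ± 68.6 CPM in valve-like LECs (n = 4 plates each). Its highest level among the larger clusters, 1698 ± 234 CPM, was in an unnamed cluster led by *Kcnj8* and *Mest*. *Igfbp5*, which binds both IGFs and extracellular matrix, showed another order. It was at 672 ± 236 CPM in collector-like, 512 ± 119 CPM in capillary-like, and 499.9 ± 63.5 CPM in valve-like LECs, which overlapped, and at 77.9 ± 62.3 CPM in the *Kcnj8* and *Mest* cluster. Valve-like LECs were thus low in *Igfbp4* and not in *Igfbp5*, and the *Kcnj8* and *Mest* cluster the reverse. *Igfbp3*, the main IGF carrier of blood plasma, was at 612 ± 190 CPM in an unnamed cluster led by *L1cam* and *Rnd1* (range 389 to 805 CPM) and at 112 ± 78.0 CPM in valve-like LECs. *Igf1* was at 58.4 ± 23.5 CPM in collector-like LECs and 27.3 ± 13.4 CPM in capillary-like LECs, ranges that overlapped. *Igfbp7*, a low-affinity binding protein found in vascular basement membrane, was at 170.1 ± 58.7 CPM in collector-like and 52.5 ± 55.4 CPM in valve-like LECs.

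In the droplet libraries, which also held blood vascular endothelial cells (BECs) and mural cells, each gene had its own pattern over the cell types. In the IgG library *Igfbp7* was at 5145 CPM in all BECs (95% exact Poisson interval 5104 to 5185, counting error only, as for all intervals on these libraries) and 4726 CPM in mural-like cells, against 487 CPM in all LECs. Capillary-like BECs reached 7145 CPM, the venous-like clusters 4157 and 3895 CPM, and arterial-like BECs 1627 CPM. *Igfbp3* peaked in arterial-like BECs at 2306 CPM (2232 to 2383), with 757 CPM in capillary-like and 89.98 CPM in venous-like BECs. Arterial-like BECs were also the highest for *Igfbp4* at 1339 CPM (1282 to 1397), followed by fibroblast-like cells at 804, venous-like BECs at 429, and capillary-like LECs at 353 CPM. Along the blood vessels the genes therefore divided. *Igfbp3* and *Igfbp4* were high on the arterial side, and *Igfbp7* was lower there than in capillary-like and venous-like BECs.

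*Igfbp5* was carried by mural cells and LECs and hardly by BECs. It was at 1175 CPM in mural-like cells (1134 to 1217), 988 CPM in collector-like LECs, and 589 CPM in all LECs, against 19.8 CPM in all BECs, and the fibroblast-like cells in the library were at 820 CPM. In the IgG library 51.0% of 1374 LECs had an *Igfbp5* UMI (exact 95% interval 48.3% to 53.7%, median depth 12016.5 UMIs) and 10.8% of 1242 BECs had one (median depth 8857.5 UMIs). The BEC share serves here as the background that free RNA and stray cells can give, and no other measure of free RNA was made. With every cell thinned to 3000 UMIs, which left out 82 LECs and 121 BECs, the shares were 37.1% and 5.00%. *Igf1* was led by fibroblast-like cells (608 CPM) and cartilage-like cells (522 CPM). Among endothelial cells it was at 122 CPM in venous-like BECs and 120 CPM in collector-like LECs, and arterial-like BECs held 2 *Igf1* UMIs in all. *Igf1r* was at 155 CPM in BECs, 113 CPM in mural-like cells, and 52.3 CPM in LECs, so its message was lower in LECs than in either neighbour in this library.

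*Igfbp6* and *Igfbp2* were barely present in vessels. *Igfbp6*, which prefers IGF2 as its ligand, was at 629 CPM in fibroblast-like cells and at 3.75 CPM in LECs and 0.74 CPM in BECs. *Igfbp2* was at 305 CPM in keratinocyte-like cells, 244 CPM in cartilage-like cells, and 3.32 CPM in LECs, where 47 of its 61 UMIs lay in proliferating LECs.

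**Figure D1:**
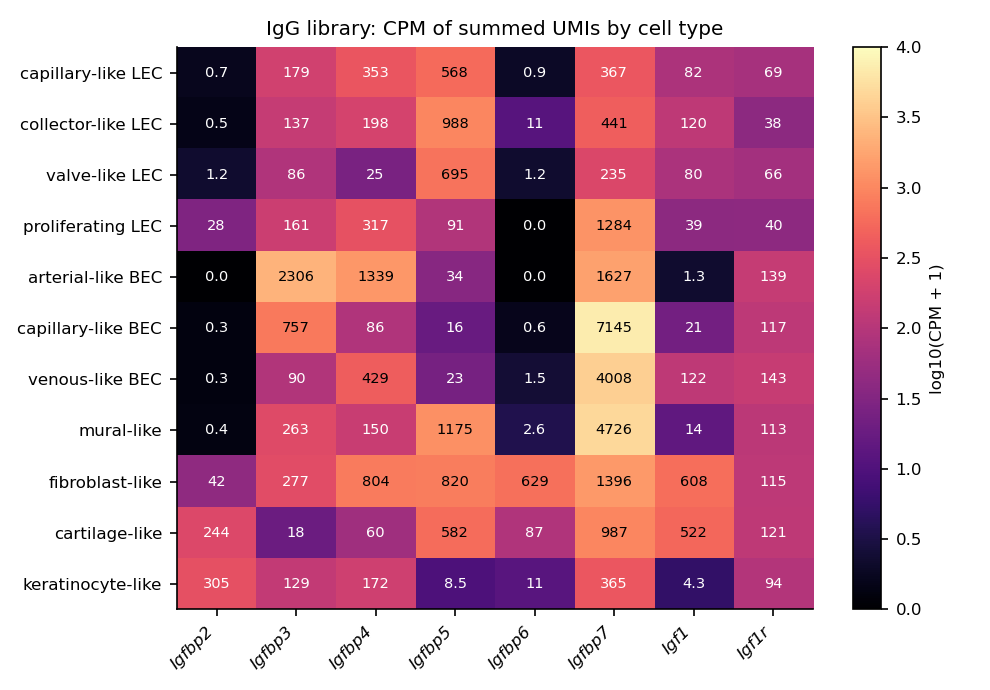
CPM of summed UMIs of the 8 genes (columns) in 11 named cell types (rows) of the IgG library, with the CPM printed in each cell and color on a log10(CPM + 1) scale. *Igfbp7* is highest in capillary-like BECs (7145 CPM), *Igfbp3* and *Igfbp4* in arterial-like BECs (2306 and 1339 CPM), and *Igfbp5* in mural-like cells (1175 CPM), followed by collector-like LECs (988 CPM).

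Deletion of both receptors left LECs with almost no *Igfbp5*. Its level was 491 and 521 CPM in the double-control plates and 1.42 and 1.502 CPM in the double-deletion plates (506 ± 20.9 against 1.46 ± 0.06 CPM, mean ± SD, n = 2 plates each). The deleted plates lay far below every other plate of the series, where the lowest was at 128 CPM. This is a 343-fold decrease (log2 -8.42, SE 0.59), and edgeR's quasi-likelihood test gave an adjusted p of 0.0010. In reads, 89304 in the control LECs of both plates compared with 254 in the deleted LECs. Wells with *Igfbp5* over 100 CPM made up 40.7% and 44.4% of control LECs and 0.548% and 0.554% of deleted LECs. In the sum of a plate's LECs, fewer cells of a class and less RNA per cell cannot be told apart, so the classes were also summed alone. The call held in each of the 19 alternative analyses (largest adjusted p 0.0142), and the decrease was the same size within the symbol layout (log2 -8.44) and the Ensembl layout (log2 -8.43).

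The decrease in *Igfbp5* was called in capillary-like and valve-like LECs taken alone. Capillary-like LECs were at 563 and 654 CPM in controls and at 0.28 and 1.12 CPM in deleted plates, a change of log2 -9.61 (SE 0.74, adjusted p 0.0007, edgeR). In valve-like LECs, 12140 reads in the controls (575 and 436 CPM) compared with 2 reads over both deleted plates, which on a floor of 3 reads over the group is at least 2434-fold lower (adjusted p 0.0015, edgeR). Collector-like LECs were at 704 and 991 CPM in controls and at 0.00 and 11.9 CPM in deleted plates. That decrease was of log2 -7.18 (SE 1.21) and missed the threshold at an adjusted p of 0.0518 (edgeR). The number of wells behind these sums was lower too, with 77 and 66 collector-like wells on the control and 22 and 23 on the deleted plates, 47 and 50 against 32 and 32 capillary-like wells, and 40 and 45 against 33 and 22 valve-like wells. *Igfbp5* was the only one of the 8 genes called in capillary-like and in valve-like LECs, where 0.17% and 0.0862% of all genes tested were called.

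Of the 8 genes, 3 were called in the LEC sums after deletion of both receptors, all lower (*Igfbp5*, *Igfbp3*, and *Igf1*), where 1.13% of the 19960 genes tested were called, 0.832% lower and 0.296% higher. The median log2 fold change of the 8 was -2.19, and that of all genes tested 0.0051. *Igfbp3* was at 391 and 212 CPM in the double-control plates and at 12.04 and 13.8 CPM in the double-deletion plates, without overlap. It was 23.3-fold lower (log2 -4.54, SE 0.65, adjusted p 0.0158, edgeR). What remained sat in few wells, since the 3 highest wells held 55.9% and 81.1% of the *Igfbp3* reads of the deleted plates, where 16 and 40 wells had any read. The *L1cam* and *Rnd1* cluster, which carried most *Igfbp3* in controls, was at 805 and 525 CPM there and at 55.7 and 21.7 CPM in the deleted plates. The call was lost without double-control plate 1 (adjusted p 0.0729), double-deletion plate 1 (0.0984), or double-deletion plate 2 (0.1201), and no class alone passed (adjusted p 0.448 to 0.681, edgeR).

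*Igf1*, the ligand, was at 40.5 and 25.3 CPM in the double-control plates and at 0.84 and 0.12 CPM in the double-deletion plates, which did not overlap. It was 67.3-fold lower (log2 -6.07, SE 0.95, adjusted p 0.0242, edgeR). Of the 57 reads in deleted plate 1, a single well held 96.5%. In collector-like LECs, the class with the highest mean *Igf1* in controls, levels were 74.5 and 46.2 CPM in controls and 0.00 and 0.13 CPM in deleted plates, 2339 reads against 1 read. That is at least 237-fold lower on a floor of 3 reads over the group, and it was called (adjusted p 0.0134, edgeR), where 0.358% of genes were called in collector-like LECs. This call was lost without double-control plate 1 (adjusted p 0.0855) and with the replicate block (0.1023). In the LEC sums the *Igf1* call was lost without double-control plate 1 (adjusted p 0.1028) or plate 2 (0.0545), with the table layout as a term (0.0560), and with only the 4 plates of this strain (0.0607).

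**Figure D2:**
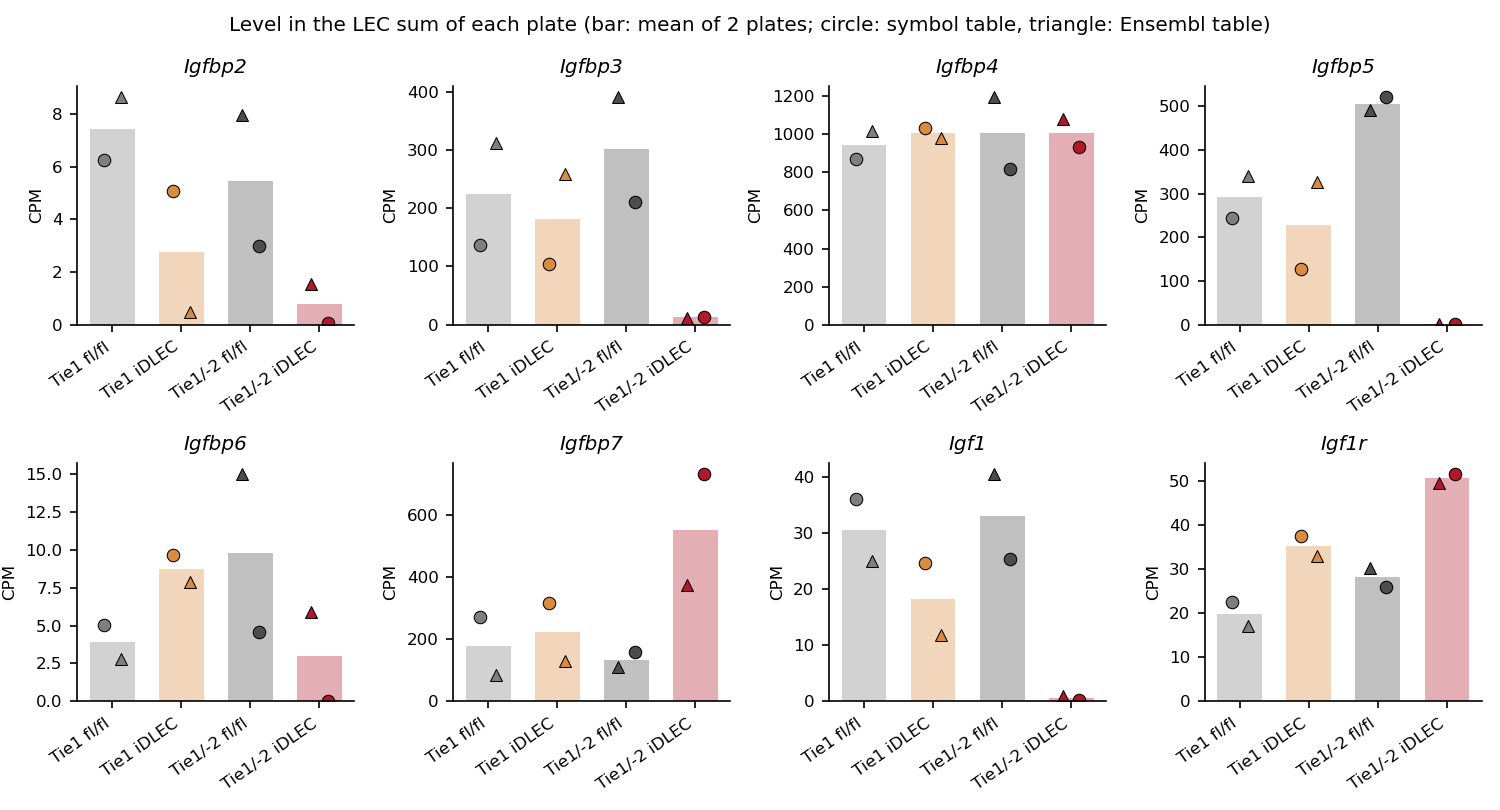
CPM of each of the 8 genes in the LEC sum of each of the 8 plates (points) with the mean of the 2 plates of a group (bars), circles for plates with the symbol layout and triangles for the Ensembl layout. *Igfbp5*, *Igfbp3*, and *Igf1* lie near 0 in both double-deletion plates, while *Igfbp4* lies between 816 and 1194 CPM in all 8 plates.

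*Igfbp7* was higher in the double-deletion plates without passing the test. It was at 109 and 157 CPM in the double-control plates and at 373 and 732 CPM in the double-deletion plates, so that both deleted plates lay above all other plates of the series, the highest of which was at 318 CPM. The difference was log2 2.05 (SE 0.58), with an unadjusted p of 0.0074 and an adjusted p of 0.231 (edgeR), and it was 2.22 and 1.78 within the layouts. Adjusted p ranged from 2.4e-09 to 0.748 over 19 alternatives, of which 4 called the gene (DESeq2, the replicate block at 0.0205, the layout term at 0.0256, and no filter on low counts). Wells over 100 CPM made up 24.4% and 33.8% of control and 73.2% and 85.9% of deleted LECs. Levels did not overlap between control and deleted plates in 10 of 12 LEC clusters, the deleted plates being higher in all 10. These clusters share the same plates, and the share of all genes separating this way was not counted. By the same count *Igfbp2* was lower in 11 and *Igfbp6* in 10 of the 12 clusters, though neither gene was called. In capillary-like LECs the values were 157 and 143 against 407 and 700 CPM, and in valve-like LECs 32.6 and 31.6 against 199 and 392 CPM.

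**Figure D3:**
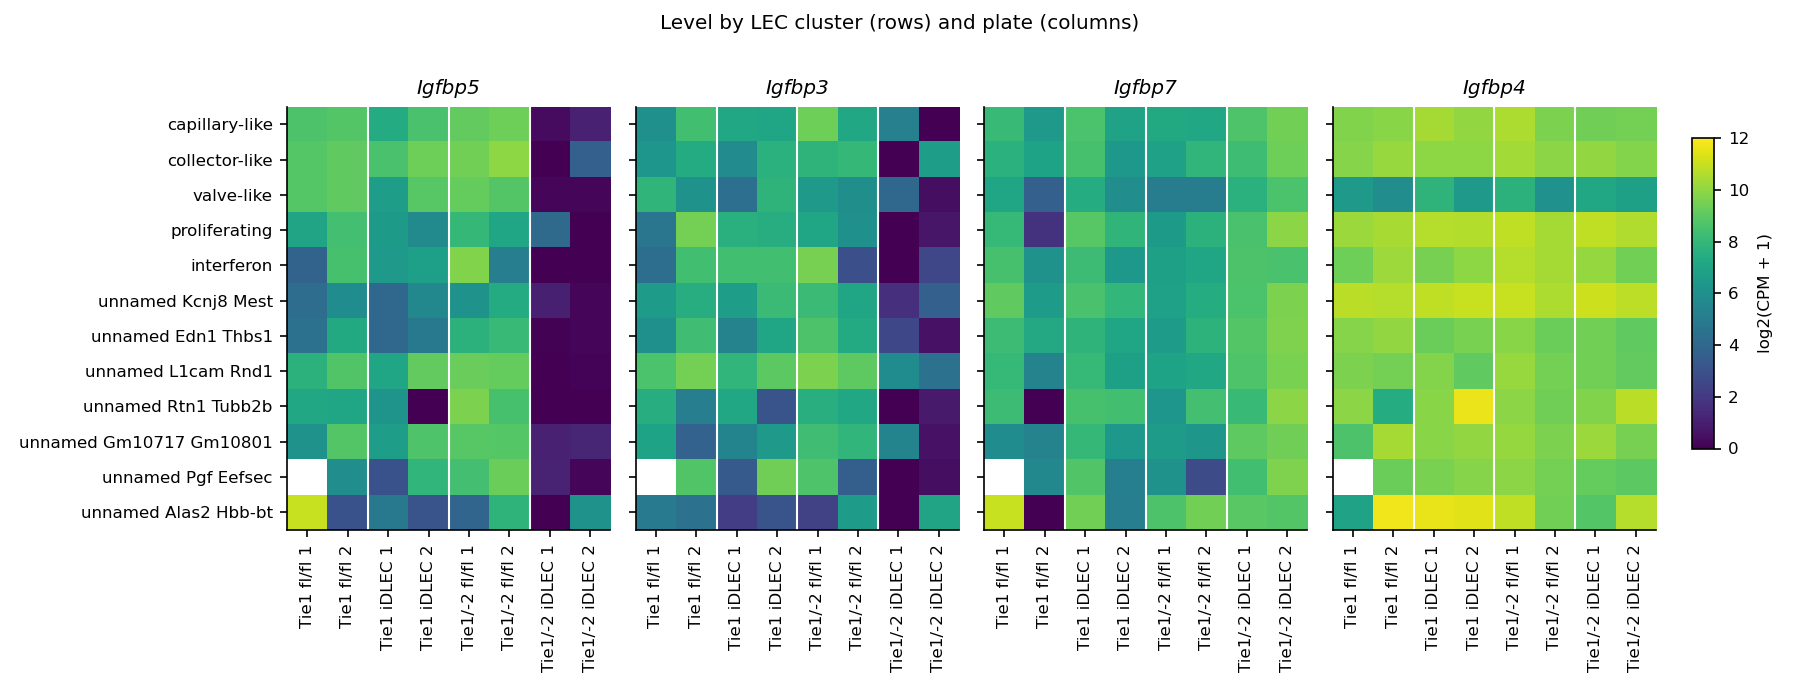
Level of *Igfbp5*, *Igfbp3*, *Igfbp7*, and *Igfbp4* as log2(CPM + 1) of summed counts in each LEC cluster (rows) and plate (columns), with white lines between groups and blank cells for a cluster without wells on a plate. *Igfbp5* and *Igfbp3* are dark in both double-deletion columns in most clusters, *Igfbp7* is brighter there in 10 of 12 clusters, and *Igfbp4* is low in valve-like LECs on every plate.

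The receptor *Igf1r* was somewhat higher in both genetic models without passing the test. It was at 22.5 and 17.2 CPM in *Tie1 fl/fl*, 37.5 and 32.9 CPM in *Tie1 iΔLEC*, 30.4 and 26.0 CPM in the double controls, and 49.6 and 51.7 CPM in the double deletion. All 4 deleted plates lay above all 4 control plates, and the share of all genes that did so was not counted. The 3 highest wells held 39.2% and 49.6% of the *Igf1r* reads in *Tie1 fl/fl* and 31.3% and 26.1% in *Tie1 iΔLEC* plates. They held 31.3% and 25.9% in the double controls and 15.5% and 14.5% in the double deletion. The log2 fold change was 0.85 (SE 0.28) after Tie1 deletion and 0.86 (SE 0.28) after Tie1/-2 deletion, with adjusted p values of 1.0 and 0.319 (edgeR). The average of both effects was 0.85 (SE 0.20, unadjusted p 0.0024, adjusted p 0.133, edgeR), where 0.912% of genes were called. Of the 8 genes *Igfbp5* was called in this average in all 18 alternatives, while *Igfbp3* (adjusted p 0.0444) was called in 10 and *Igf1* (0.0456) in 8 of the 18, both being lost without either *Tie1 iΔLEC* plate or either double-control plate, among others (adjusted p up to 0.143 and 0.188, edgeR). The average joins unequal effects of Tie1 and Tie1/-2 deletion for *Igfbp5* (log2 -0.35 and -8.42), *Igfbp3* (-0.31 and -4.54), and *Igf1* (-0.74 and -6.07). A call in the average therefore does not show that these 3 genes changed in both models. For *Igf1r*, DESeq2 alone among 18 alternatives called it (adjusted p 0.0001). Over those 18 the average lay between 0.79 and 0.91. Wells over 100 CPM made up 3.16% to 6.73% of LECs in control plates and 7.80% to 15.5% in deleted plates.

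*Igfbp4* had a small difference in the LEC sums. It was at 1194 and 816 CPM in the double-control plates and at 1083 and 934 CPM in the double-deletion plates, a log2 fold change of 0.02 (SE 0.25), and between 869 and 1036 CPM in the *Tie1* plates. In the LEC sums the double-deletion plates lay within the range of the double controls. These sums join classes whose sizes differed, since the *Kcnj8* and *Mest* cluster, high in *Igfbp4*, had 30 and 49 wells in the double controls and 76 and 84 in the double deletion. Within clusters, *Igfbp4* was lower without overlap in 4 of 12 and higher in 0, a count with no share over all genes beside it. Capillary-like LECs were at 1487 and 803 against 678 and 709 CPM (log2 -0.73, SE 0.33, unadjusted p 0.0483, adjusted p 0.511, edgeR). *Igfbp2* and *Igfbp6* were low throughout. *Igfbp2* was at 7.94 and 2.98 CPM in the double-control plates and at 1.54 and 0.057 CPM in the double-deletion plates, where 98.1% of the 104 reads of plate 1 came from a single well (log2 -2.72, SE 1.51, adjusted p 0.608, edgeR). *Igfbp6* was at 15.0 and 4.55 against 5.92 and 0.019 CPM, values that overlapped (log2 -1.66, SE 1.61, adjusted p 0.838, edgeR). Among the wells set aside from the control plates, the fibroblast-like ones carried 177 ± 166 CPM of *Igfbp2* and 273 ± 267 CPM of *Igfbp6* (n = 4 plates). The double-control plates had 46 and 23 such wells and the double-deletion plates 5 and 15, and the part of these wells in the LEC values of both genes was not tested. The summed CPM of 6 fibroblast markers in the LEC sums was 303 and 84.1 in these control plates, 126 and 186 in the deleted plates, and 77.3 to 142 in the *Tie1* plates. The sum overlapped between double-control and double-deletion plates, but it was higher in both *Tie1 iΔLEC* plates than in both *Tie1 fl/fl* plates. Single markers moved both ways, with *Col1a1* at 34.9 and 28.7 CPM in the double controls and 3.48 and 8.43 CPM in the double deletion, and *Col3a1* at 79.7 and 33.5 against 107 and 140 CPM. The part of these transcripts in the values of the 8 genes was not tested.

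After deletion of Tie1 alone none of the 8 genes was called, and edgeR called 0% of the 19960 genes (848 genes, 4.25%, had an unadjusted p under 0.05, and DESeq2 called 175). The deleted gene *Tie1* was itself not called here, at log2 -1.93 (SE 0.26, adjusted p 0.261, edgeR). The lack of a call therefore does not show that a gene was unchanged. *Igfbp5* was at 244 and 341 CPM in *Tie1 fl/fl* and at 128 and 327 CPM in *Tie1 iΔLEC* plates, and *Igfbp3* at 136 and 313 against 104 and 259 CPM. Both overlapped between the groups, with log2 fold changes of -0.35 (SE 0.42) and -0.31 (SE 0.56). Within the symbol and Ensembl layouts the deleted plate was the lower one each time, by log2 -0.93 and -0.06 for *Igfbp5* and by -0.40 and -0.27 for *Igfbp3*. *Igf1* was at 36.0 and 25.1 against 24.6 and 11.8 CPM, with both deleted plates under both controls (log2 -0.74, SE 0.75, adjusted p 1.0, edgeR). *Igfbp7* was at 272 and 85.1 against 318 and 128 CPM (log2 0.35, SE 0.56), where the layouts differed more than the groups. In this strain the layouts also differ in sex, so layout and sex cannot be told apart here. *Igf1r* had the lowest unadjusted p of the 8 (0.0156). For *Igfbp5* the effect of Tie1/-2 deletion was tested against that of Tie1 deletion, and the difference was log2 -8.08 (SE 0.68, adjusted p 0.0098, edgeR), where 0.1% of genes were called. Summed alone, capillary-like LECs (log2 -9.03) and valve-like LECs (log2 -10.87) passed as well, where 0.0353% and 0.0359% of genes were called. Collector-like LECs did not pass (log2 -7.24, SE 1.44, adjusted p 0.243, edgeR). The valve-like call was lost without *Tie1 fl/fl* plate 1 (adjusted p 0.0776) or plate 2 (0.0689), without double-deletion plate 1 (0.0540) or plate 2 (0.0990), and with the replicate block (0.0532), and the capillary-like call held in all 12 alternatives. In the LEC sums the difference was not called without double-control plate 1 (adjusted p 0.0551), double-deletion plate 2 (0.0512), or *Tie1 fl/fl* plate 1 (0.0653), or when no well cluster was removed (0.0860). For *Igfbp3* (log2 -4.23, adjusted p 0.167) and *Igf1* (log2 -5.34, adjusted p 0.237) the difference was not called by edgeR.

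The Ang2 Ab model has 1 library per arm, so its values carry no test, and a ratio past 1.5-fold in either direction was used to describe it. In all LECs (1374 IgG and 789 Ang2 Ab cells) 5 of the 7 genes with at least 100 UMIs were past 1.5-fold, where 7.2% of 10838 genes were, 3.37% higher and 3.83% lower. *Igfbp5* was at 589 CPM with IgG and 158 CPM with Ang2 Ab, a ratio of 0.269 (95% counting interval 0.255 to 0.283). *Igfbp3* was at 159 and 72.0 CPM (ratio 0.453, 0.417 to 0.492), and *Igf1* at 76.6 and 31.6 CPM (ratio 0.413, 0.364 to 0.467). The 3 lower genes were those called lower after Tie1/-2 deletion, and their ratios stayed between 0.224 and 0.545 in 7 alternatives. These changed the choice or clustering of the cells, or the way counts were scaled or averaged. *Igf1r* was at 52.3 and 90.9 CPM (ratio 1.74, 1.58 to 1.90), and *Igfbp4* at 228 and 370 CPM (ratio 1.62, 1.55 to 1.70). *Igfbp7* was at 487 and 659 CPM, a ratio of 1.35 (1.31 to 1.40) that did not reach 1.5-fold. The ranges over the same 7 alternatives were 1.61 to 1.85 for *Igf1r*, 1.38 to 1.73 for *Igfbp4*, and 1.33 to 1.504 for *Igfbp7*. The summed CPM of the 6 fibroblast markers was 118 and 124 in LECs of the IgG and Ang2 Ab libraries. LECs with an *Igfbp5* UMI made up 51.0% and 20.9% of cells at similar median depths (12016.5 and 11241 UMIs), and 37.1% and 12.4% after thinning, against 10.8% and 6.39% of BECs. *Angpt2* itself, whose protein the antibody binds, was at 138 and 855 CPM in LECs.

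In capillary-like LECs (363 and 232 cells) all 6 genes with at least 100 UMIs were past 1.5-fold, where 7.92% of genes were. *Igfbp5* was at 568 and 83.4 CPM (ratio 0.147, 0.129 to 0.168), *Igf1* at 82.4 and 15.8 CPM (0.192, 0.138 to 0.261), and *Igfbp3* at 179 and 72.3 CPM (0.404, 0.346 to 0.470). *Igfbp4* had a ratio of 1.88 (1.76 to 2.01), *Igf1r* of 1.61 (1.38 to 1.89), and *Igfbp7* of 1.57 (1.46 to 1.68). The *Igf1r* ratio was under 1.5 with at most 5% mitochondrial UMIs (1.44) and at a resolution of 2.0 (1.38). In collector-like LECs, of which there were 307 and 86, *Igfbp5* (0.586, 0.537 to 0.637) and *Igfbp3* (0.270, 0.191 to 0.373) were past 1.5-fold lower and *Igf1r* (1.89, 1.42 to 2.50) past 1.5-fold higher, where 9.16% of genes were past it. *Igf1* (0.702) was not past 1.5-fold, and *Igfbp7* (0.958) and *Igfbp4* (1.09) had intervals that included 1. The collector-like *Igfbp5* ratio moved with the analysis, to 0.206 by mean CPM per cell, 0.358 at a clustering resolution of 0.5, and 0.809 with cells of at most 5% mitochondrial UMIs. That of *Igf1* was 0.384 and past 1.5-fold at a resolution of 0.5, and that of *Igfbp3* was 0.498 there.

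In valve-like LECs the same 3 genes were past 1.5-fold, *Igfbp5* at 0.278 (0.2497 to 0.308), *Igfbp3* at 0.267 (0.194 to 0.362), and *Igf1r* at 1.52 (1.25 to 1.84), where 4.68% of genes were. *Igf1r* was at 1.20 with at most 5% mitochondrial UMIs. *Igf1* was at 0.852 (0.692 to 1.05). This class joins a cluster led by *Cd79a* and *Fibin* with 152 and 126 cells and another led by *Slc41a1* and *Irx3* with 114 and 75 cells. *Igfbp5* was lower in both (ratios 0.322 and 0.122), but *Igf1* was at 0.955 (0.768 to 1.18) in the first and 0.195 (0.0599 to 0.494) in the second. *Igfbp7* was at 2.23 (1.83 to 2.73) and 0.851 (0.742 to 0.974), so the ratio of 1.15 for the whole class joins a higher value in one cluster with a lower one in the other. Proliferating LECs (70 and 41 cells) had 4 of 5 genes past 1.5-fold, where 16% of genes were, with *Igfbp5* at 0.202 (0.105 to 0.357), *Igfbp7* at 1.71, *Igfbp4* at 1.87, and *Igf1r* at 2.30 (1.61 to 3.29).

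In blood vessels fewer of the genes were past 1.5-fold. In all BECs (1242 and 1268 cells) 1 of 6 genes was past 1.5-fold, *Igf1* with a ratio of 0.643 (0.560 to 0.738), where 3.54% of 10301 genes were. *Igfbp5* had a ratio of 0.749 (0.609 to 0.919), *Igfbp4* of 0.812 (0.774 to 0.852), *Igfbp7* of 0.939 (0.928 to 0.9499), *Igfbp3* of 1.11 (1.08 to 1.15), and *Igf1r* of 1.22 (1.15 to 1.30). Venous-like BECs had 3 of 6 genes past 1.5-fold, where 6.53% of genes were, with *Igfbp4* at 429 and 210 CPM (ratio 0.489, 0.439 to 0.543) and *Igf1* at 122 and 59.5 CPM (ratio 0.488, 0.398 to 0.596). Both were lower in each venous-like cluster, *Igfbp4* at 0.446 and 0.525 and *Igf1* at 0.451 and 0.527. The other gene, *Igfbp5*, had a ratio of 0.409 on few UMIs, in cells whose *Igfbp5* served above as background. It joins 0.0819 (64 and 3 UMIs) in the cluster led by *Sele* and *Selp* (131 and 78 cells) with another value. That was 1.59 (0.759 to 3.40, 15 and 18 UMIs) in the cluster led by *Slfn4* and *Plekha7* (146 and 150 cells). The part of free RNA in these values was not tested. In capillary-like BECs *Igf1* was at 21.3 and 34.9 CPM (ratio 1.64, 1.21 to 2.24), the 1 gene of 6 past 1.5-fold, where 2.45% of genes were. In arterial-like BECs 0 of 4 were, where 2.96% of genes were, and *Igfbp3* was at 1.20 (1.15 to 1.25). Capillary-like BECs had *Igfbp3* at 0.755 (0.710 to 0.802). An unnamed BEC cluster led by *Col13a1* and *Snai1* had 4 genes with at least 100 UMIs. Of these *Igfbp3* was past 1.5-fold lower (0.383, 0.288 to 0.502) and *Igfbp4* past 1.5-fold higher, where 4.32% of genes were past it.

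Mural-like cells (179 and 222 cells) had *Igfbp5* at 1175 and 1182 CPM, a ratio of 1.01 (0.957 to 1.06). *Igfbp7* (0.992, 0.967 to 1.02), *Igf1r* (1.05, 0.895 to 1.23), and *Igfbp4* (1.14, 0.998 to 1.31) also had intervals that included 1. *Igfbp3*, at 263 and 161 CPM (0.613, 0.543 to 0.692), was the 1 gene of 5 past 1.5-fold, where 4.54% of genes were. The endothelial gene *Tie1* had the same ratio there (0.612, from 96.5 to 59.0 CPM), and the *Igfbp3* ratio was 0.944 without the 5% of cells with the highest doublet scores, whose part in the difference was not tested. In fibroblast-like cells (43 and 36 cells) 3 of 8 genes were past 1.5-fold, where 13.5% of genes were. *Igf1* was at 608 and 1204 CPM (ratio 1.98, 1.77 to 2.21) and *Igfbp2* at 41.6 and 192 CPM (4.62, 3.20 to 6.82), and *Igfbp5* was lower at 820 and 406 CPM (0.495, 0.428 to 0.571).

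**Figure D4:**
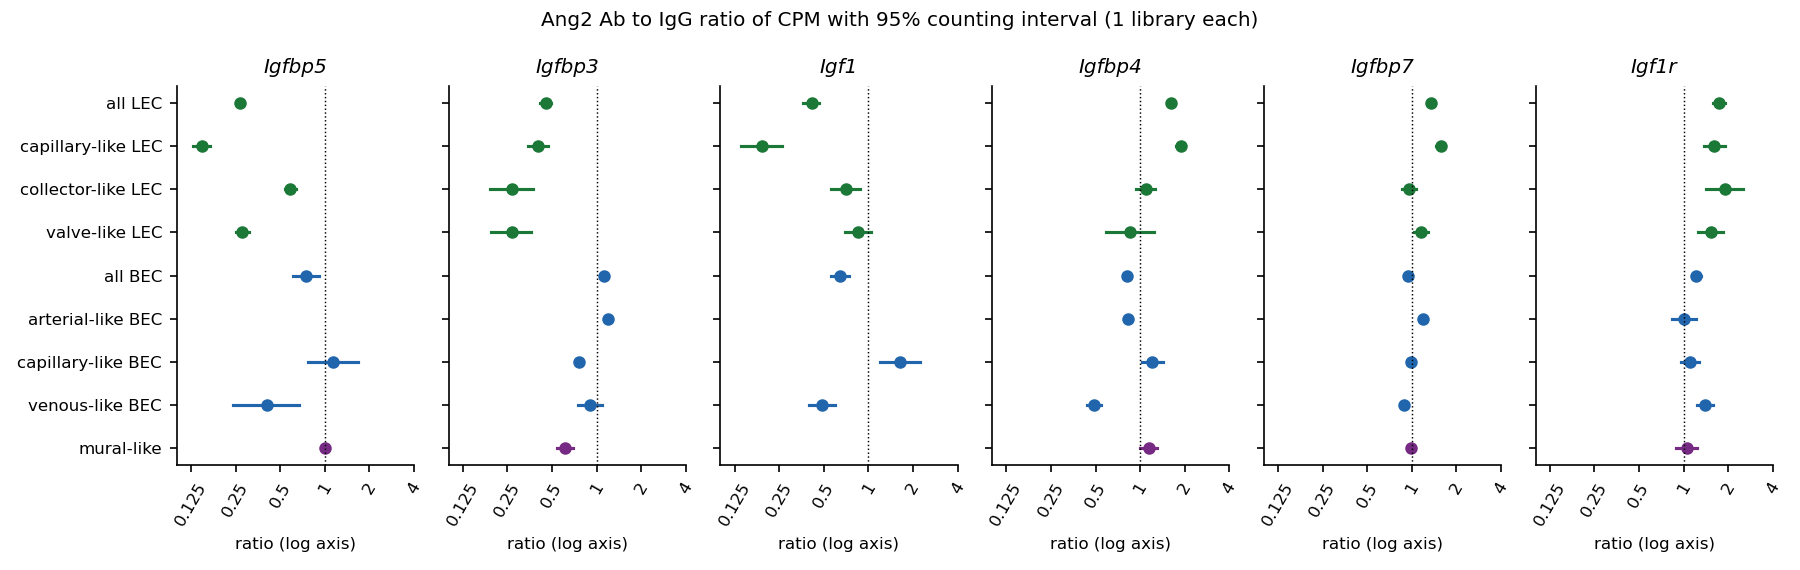
Ratio of CPM, Ang2 Ab to IgG, on a log axis with 95% counting intervals for 6 genes (panels) in LECs (green), BECs (blue), and mural-like cells (purple), 1 library per arm. *Igfbp5*, *Igfbp3*, and *Igf1* lie left of 1 in all LECs (0.269, 0.453, and 0.413) and *Igf1r* right of it (1.74), while *Igfbp5* in mural-like cells lies at 1.01.

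Side by side, the LEC values of the 3 models had the same sign for every one of the 8 genes but *Igfbp6*. The share of all genes with the same sign in the 3 models was not counted. The sizes differed widely for *Igfbp5*, *Igfbp3*, and *Igf1*. For *Igfbp5* the log2 differences were -0.35 (Tie1 deletion), -8.42 (Tie1/-2 deletion), and -1.90 (Ang2 Ab). For *Igf1* they were -0.74, -6.07, and -1.28, and for *Igfbp3* -0.31, -4.54, and -1.14. For *Igf1r* they were 0.85 (SE 0.28), 0.86 (SE 0.28), and 0.80, none of which came from a passed test. After the deletions *Igf1r* was at 0.08 and 1.34 in capillary-like, 1.18 and 0.94 in collector-like, and 1.32 and 1.03 in valve-like LECs. The SE of these class values were 1.01 to 1.20. *Igfbp4* was near 0 in both deletions (0.10 and 0.02) and at 0.70 with Ang2 Ab. *Igfbp2* was at -1.46 and -2.72 in the deletions and had 61 and 7 LEC UMIs in the IgG and Ang2 Ab libraries, a ratio of 0.212 (0.0818 to 0.464). Of these UMIs 47 and 2 lay in proliferating LECs (ratio 0.0994). The ratio was 0.974 in capillary-like, 3.76 in collector-like, and 0.373 in valve-like LECs, on few UMIs and with intervals that included 1. *Igfbp6* was at 1.19, -1.66, and 0.56. Only the deletions were tested, and the assays, ages, and strains of the antibody model differ from theirs. The signs after Tie1 deletion of *Igfbp5*, *Igfbp3*, *Igfbp4*, and *Igfbp7* also depend on single plates, as given with the alternatives.

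**Figure D5:**
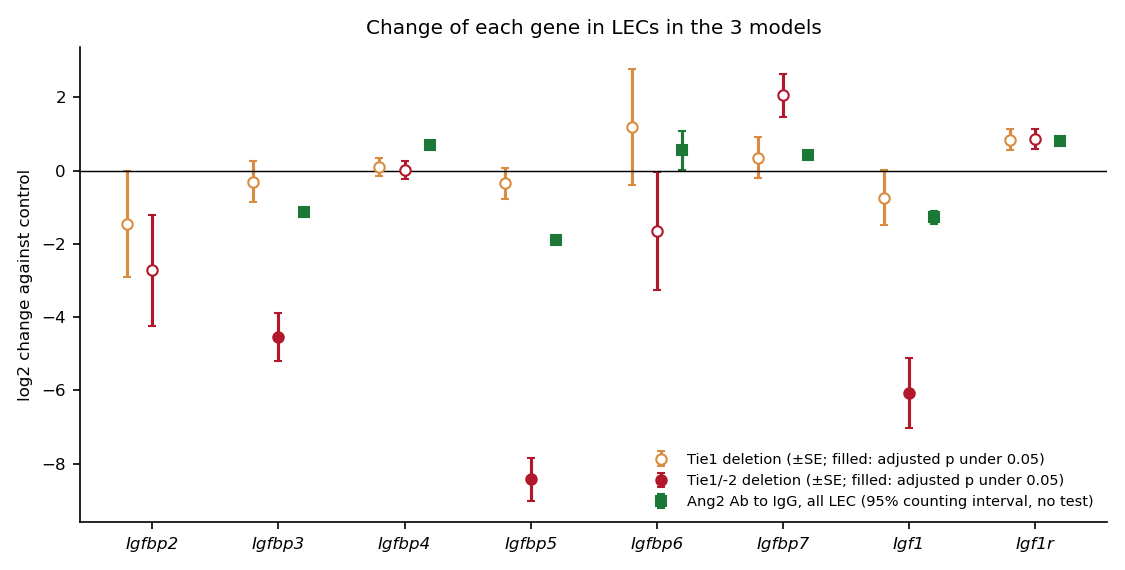
Log2 difference from control in LECs for each gene, with SE for the 2 deletions (circles, filled where edgeR's adjusted p was under 0.05) and the 95% counting interval for Ang2 Ab to IgG (squares, no test). *Igfbp5*, *Igfbp3*, and *Igf1* are filled and far below 0 only for Tie1/-2 deletion, and *Igf1r* lies between 0.80 and 0.86 in all 3 models.

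The other genes of the pathway were a list of 14 ligands, receptors, adaptors, proteases, and inhibitors (*Igf2*, *Igf2r*, *Igfbp1*, *Insr*, *Irs1*, *Irs2*, *Igfals*, *Pappa*, *Pappa2*, *Htra1*, *Stc1*, *Stc2*, *Grb10*, and *Shc1*). On the plates 13 of them could be tested, and none was called after either deletion, in the difference, or in the average (edgeR). After Tie1/-2 deletion 5 had an unadjusted p under 0.05 (edgeR), where 10.5% of all genes tested did. Their median log2 fold change after Tie1/-2 deletion was -0.84, with 3 above and 10 below 0. *Pappa*, the protease that cleaves Igfbp4, was at 28.3 and 43.2 CPM in the double-control plates and at 8.71 and 4.76 CPM in the double-deletion plates (log2 -2.37, SE 0.56, adjusted p 0.133, edgeR). With Ang2 Ab, 3 of the 8 with enough UMIs in LECs were past 1.5-fold, where 7.2% of all genes were. *Igf2*, the other IGF ligand, had a ratio of 1.91 (1.81 to 2.02), *Pappa* of 1.68 (1.43 to 1.96), and the secreted protease *Htra1* of 0.666 (0.452 to 0.964). Of the 111 *Htra1* UMIs in IgG LECs, 70 lay in proliferating LECs, where its ratio was 0.167. It was 1.88 in collector-like, 1.25 in capillary-like, and 0.895 in valve-like LECs, and 2.44 in the cluster led by *Dusp1* and *Ccn1*. Those values rest on few UMIs, and their intervals included 1. *Pappa* thus lay on opposite sides of control after Tie1/-2 deletion and with Ang2 Ab, and neither value comes from a passed test. After Tie1 deletion *Pappa* was at log2 0.20 (SE 0.53), on the same side as with Ang2 Ab and not called either. *Igf2* had a ratio of 3.504 in collector-like and 0.688 in valve-like LECs, so the classes differed in direction. *Stc1*, a secreted inhibitor of Pappa, had a ratio of 0.255 in collector-like LECs, 0.546 in capillary-like LECs, and 0.421 in venous-like BECs but 1.80 in valve-like LECs, where *Pappa* was at 3.03 and *Igf2r*, the receptor that clears Igf2, at 0.628. In arterial-like BECs *Igf2* was at 1.55.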

How the data were processed

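The plate tables the authors deposited hold raw read counts, 1 column per well. The submitters' processing notes name TopHat2 2.1.1, SAMtools 0.1.18, and Subread featureCounts on GRCm38/mm10. The deposited droplet matrices hold filtered UMI counts, with Cell Ranger 2.1.1 in the notes and another version in the file headers. Joined genes held 95.5% to 96.7% of plate counts. Wells with at least 1000 genes, and droplet cells with at least 500 genes and at most 10% mitochondrial UMIs, were clustered (scanpy 1.11.5, 2000 variable genes, 30 components, 15 neighbors, Leiden resolution 1) without 34 genes, the 8 described among them. Scrublet called 0.582% and 0.0675% of droplet cells and so had not worked, and no doublet was removed. Counts summed per plate, or per plate and class with at least 10 wells on each plate, were scaled by TMM and compared in 1 fit of 8 plates by edgeR 4.0.16 (filterByExpr, quasi-likelihood test, Benjamini-Hochberg threshold 0.05). Alternatives were each plate left out, DESeq2 1.42.0, limma 3.58.1, no low-count filter, a replicate block, a layout term, and other filters and resolutions. Droplet sums are CPM with exact Poisson intervals, and ratios have exact conditional binomial intervals. Genes with at least 100 UMIs over both libraries counted toward the share past 1.5-fold. The 8 genes, the list of other pathway genes, and the markers were chosen with earlier results of these data known. All 8 are named, with a selection of the listed pathway genes past 1.5-fold in droplet cells, and *Pappa* on the plates was chosen after its values were seen. That selection leaves out, among others, *Irs2* and *Grb10* in fibroblast-like cells, *Grb10* in proliferating LECs, and *Irs1* in cartilage-like cells. The fits were tested on simulated data.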

Additional observations from a re-analysis of the deposited data

Results flagged for a closer look

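*Igfbp5* responded differently to the 2 deletions by a test of the difference itself. The log2 fold change after Tie1/-2 deletion minus that after Tie1 deletion was -8.08 in all LECs, -9.03 in capillary-like LECs, and -10.87 in valve-like LECs (adjusted p 0.0098, 0.0039, and 0.0085, edgeR). In collector-like LECs it was -7.24 and was not called (adjusted p 0.243, edgeR). Under the alternatives the call held in 14 of 18 for all LECs (adjusted p up to 0.0860), in 12 of 12 for capillary-like LECs, and in 7 of 12 for valve-like LECs (adjusted p up to 0.0990). In valve-like LECs the deleted group had 2 reads, so its value depends on the prior count of the fit.

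With Ang2 Ab, 3 of the genes lay on opposite sides of 1 in LECs and BECs. The ratio was 0.45 in LECs and 1.11 in BECs for *Igfbp3*, 1.62 and 0.81 for *Igfbp4*, and 1.35 and 0.94 for *Igfbp7*. *Igfbp5*, *Igf1*, and *Igf1r* each lay on the same side of 1 in both. How many of all genes lay on opposite sides was not counted. The median log2 ratio of all genes was near 0 in LECs (-0.0004) and BECs (0.02). As the share of all genes on opposite sides was not counted, the count of 3 cannot set these genes apart from other genes. BEC types differed for *Igfbp3*, at 1.20 in arterial-like cells and 1.12 in a cluster led by *Lrat* and *Apcdd1*. The others lay under 1, at 0.755 in capillary-like and 0.904 in venous-like BECs. Clusters led by *Kit* and *Adam19* and by *Col13a1* and *Snai1* were at 0.735 and 0.383. With 1 library per arm, the difference between LECs and BECs was not tested.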

How the results depend on the processing

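Of 612 values that alternatives gave for the log2 fold changes in the text, 545 kept their direction and side of the threshold, 22 passed it newly, 36 no longer passed, and 9 changed sign. All 9 came from leaving out a plate, which gave -1.19 to 0.52 for *Igfbp3*, -0.077 to 0.30 for *Igfbp4*, -1.25 to 0.21 for *Igfbp5*, and -0.38 to 1.31 for *Igfbp7* after Tie1 deletion, and -0.25 to 0.34 for *Igfbp4* after Tie1/-2 deletion. Of 252 droplet ratios 48 moved beyond their interval, and 48 of 48 class levels stayed within 1 SD. The largest shifts of collector-like and mural-like ratios are given above.

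The number of genes called after Tie1 deletion was 0, 175 by DESeq2, and 264 without the filter. After Tie1/-2 deletion it was 225, 992 by DESeq2, 343 by limma on mean CPM per well, 1154 without the filter, and 80 to 211 with a plate left out. The difference had 20, 440 by DESeq2, 615 without the filter, 8 with the replicate block, 12 with the layout term, and 2 to 17 with a plate left out. The average had 182, 874 by DESeq2, 1067 without the filter, 115 with the block, and 47 to 142 with a plate left out.

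In capillary-like LECs, Tie1 deletion gave 1 call, 66 by DESeq2, 0 with the block, 0 at resolution 0.5, and 0 to 1 with a plate left out, and Tie1/-2 deletion gave 24, 570 by DESeq2, and 39 at resolution 0.5. In collector-like LECs they gave 0 (69 by DESeq2, 1 at resolution 2.0) and 53 (684 by DESeq2, 21 with the block, 121 at resolution 0.5, and 13 to 151 with a plate left out). In valve-like LECs they gave 0 (135 by DESeq2) and 12 (484 by DESeq2, 6 with the block, 25 at resolution 2.0, and 6 to 24 with a plate left out). At resolution 2.0 the collector-like Tie1/-2 comparison could not be fitted for want of 10 wells on each plate. The cause of these shifts was not tested.

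No label says that a replicate number marks a shared litter, batch, or day, though same-numbered plates of a strain share the table layout and the sex. They deviated together with r = 0.177 (*Tie1*) and 0.202 (*Tie1* *Tie2*), and the replicate block gave *Igfbp7* an adjusted p of 0.0205 after Tie1/-2 deletion.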

Other observations

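Over the 21 cell clusters of the IgG library, the 3 genes whose levels most resembled those of each gene were found by Pearson correlation across clusters. This is a description, since the clusters share a library. *Igfbp7* was most like *Sparcl1* (r = 0.925), *Vwa1* (0.925), and *Gm11730* (0.917), and *Igfbp5* like *Ank2* (0.935), *Cacna2d1* (0.913), and *Smarca1* (0.905). *Igfbp3* was most like *Hey1*, an arterial transcription factor (0.823), *Oaz2* (0.778), and *Nus1* (0.767), and *Igf1r* like *Inppl1*, a lipid phosphatase gene (0.940), *Pogk* (0.922), and *Ttc39b* (0.920). *Igf1* (*Castor2*, 0.758, *Fkbp10*, 0.754, and *Timp1*, 0.748) and *Igfbp4* (*Vkorc1l1*, 0.699, *Acbd4*, 0.636, and *Trerf1*, 0.635) had weaker matches.

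*Igfbp2* was most like *Tiam1* (0.961), *Prlr* (0.951), and *Klf5* (0.920), and *Igfbp6* like *Podn* (0.895), *Scara5* (0.894), and *Igdcc4* (0.885), both in clusters outside the vessels.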
